A study of Homo sapiens with 2 samples.

Results

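The 34 genes described here encode the main steps of the PI3K, AKT and mTOR pathway, from the insulin-type receptors to the S6 kinases. They were taken by exact symbol from a table of 37364 genes, and all 34 were found in it. RNA came from D407, a human cell line that the labels call adult retinal pigment epithelial (RPE) cells, grown in medium with serum. The libraries are 1 of clusterin-treated cells and 1 of control cells; clusterin, also called apolipoprotein J, is a chaperone glycoprotein that cells secrete. No genotype or other agent separates the groups in the labels, and neither dose nor duration of clusterin is given in the sources used here. With 1 library per group, no difference below has a replicate check, and every interval covers counting error only.

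When insulin or an insulin-like growth factor binds its receptor, IRS adaptor proteins are phosphorylated and recruit PI3K, a lipid kinase made of a catalytic and a regulatory subunit. Its lipid product brings AKT and PDPK1 to the membrane, where PDPK1 and the mTOR complex with RICTOR activate AKT. AKT then inhibits GSK3, the FOXO transcription factors and the TSC complex, which frees RHEB to activate the mTOR complex with RPTOR and, through it, the S6 kinases. In the retinal pigment epithelium of mice, mTOR signalling is known to drive dedifferentiation of the cells under stress. Much of this signalling runs through phosphorylation, which transcript levels do not measure.

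The levels are RPKM, reads scaled to transcript length and library total. The library totals, inferred from the levels of short RNA genes, were 33177095 reads with clusterin and 38236988 in the control. Of 8 RPE markers, 5 were listed at 0 in both libraries (RPE65, RLBP1, LRAT, TTR and TYR) and 2 were measured (BEST1 and MITF), and the list summed to 12.0 RPKM with clusterin and 12.4 RPKM in the control. The 4 simple epithelial keratins summed to 1003 RPKM with clusterin and 984 RPKM in the control. Defining markers of other cells were low: 3 leukocyte, 3 endothelial and 3 fibroblast genes summed to between 1.68 and 6.09 RPKM per list with clusterin and between 1.94 and 6.26 RPKM in the control, with PTPRC at 0 in both. TUBB3, a neuronal tubulin, stood at 2.31 RPKM with clusterin and 1.73 RPKM in the control. Their part in the results was not tested. In bulk RNA, fewer cells of a type and less RNA per cell cannot be told apart. Over the 13244 measured genes, those with a mean of at least 1 RPKM, the median log2((clusterin RPKM + 1)/(control RPKM + 1)) was -0.06, so the libraries have a general offset towards lower values with clusterin.

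The pathway was expressed nearly whole and, like the measured genes in general, differed little between the libraries. Of the 34 members, 30 were measured. PIK3CD, PIK3R1, INPP4B and INPP5D lay below 1 RPKM. The median log2 difference of the 30 was -0.06 with quartiles of -0.12 and -0.01, against a median of -0.06 and quartiles of -0.13 and 0.02 over all measured genes. Lower values with clusterin were seen for 23 of the 30 members (76.7%), against 70.2% of all measured genes. Relative to the median of all measured genes, 17 members lay below and 13 above. None of the 30 reached 2-fold, as 0.219% of measured genes did. The largest difference was -0.32 on the log2(RPKM + 1) scale, and 18 members lay within 0.1 of 0. The share of all measured genes within 0.1 was not taken, so that count has no background here.

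**Figure D1:**
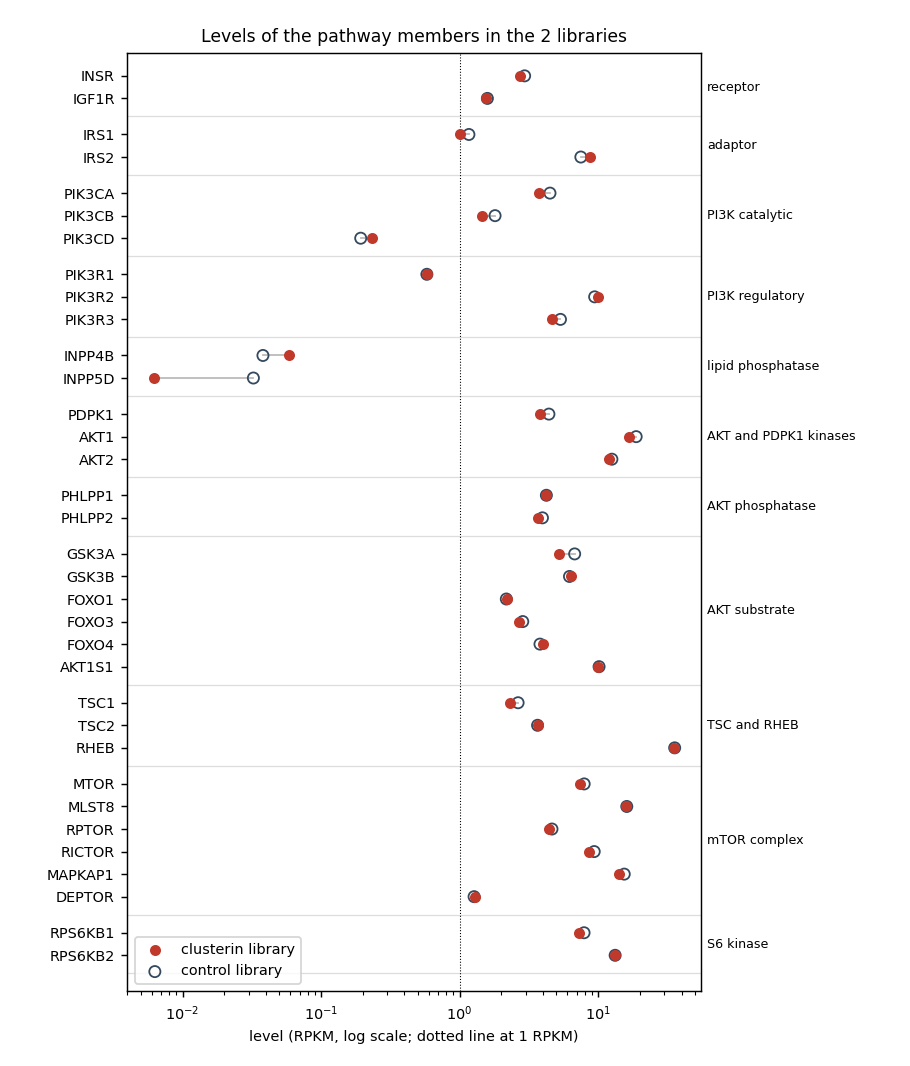
Level of each of the 34 members in RPKM on a log axis, by role from top to bottom, as a filled point for the clusterin library and an open circle for the control library (1 library each). RHEB is the highest, at 35.1 RPKM with clusterin and 35.7 RPKM in the control, the 2 lipid phosphatases lie below 0.1 RPKM, and for most members the 2 symbols overlap.

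The insulin receptor gene INSR stood at 2.74 RPKM with clusterin and 2.95 RPKM in the control, from 824 and 1021 reads, a clusterin-to-control RPKM ratio of 0.930 (95% counting interval 0.848 to 1.02). IGF1R, the receptor of insulin-like growth factors, stood at 1.55 RPKM with clusterin and 1.59 RPKM in the control (578 and 682 reads, ratio 0.977, 0.873 to 1.09). Neither receptor was separated between the libraries beyond counting error. INSR made up 63.9% of the RPKM of the receptor pair with clusterin and 65.0% in the control, and the ratio of INSR over IGF1R, clusterin over control, was 0.952 (0.823 to 1.10).

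The adaptors that carry the receptor signal to PI3K lay on opposite sides of a ratio of 1. IRS2 was the highest of all members by difference, at 8.68 RPKM with clusterin and 7.50 RPKM in the control, a log2 difference of 0.19 that was higher than in 95.8% of measured genes. Its 2016 clusterin and 2008 control reads gave a ratio of 1.16 (1.09 to 1.23). IRS1 stood at 1.004 RPKM with clusterin and 1.17 RPKM in the control (291 and 390 reads), a ratio of 0.860 (0.736 to 1.0035) whose interval just held 1. IRS2 was the main adaptor transcript in both libraries. The RPKM of IRS2 was 8.65 times that of IRS1 with clusterin and 6.43 times in the control, and this ratio of ratios was 1.35 (1.14 to 1.59), a comparison that does not depend on the library totals.

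The main catalytic subunits of PI3K, PIK3CA and PIK3CB, were lower with clusterin under every scaling tried. PIK3CA, the p110-alpha subunit, stood at 3.75 RPKM with clusterin and 4.49 RPKM in the control, from 461 and 637 reads, a log2 difference of -0.21 and a ratio of 0.834 (0.738 to 0.942). PIK3CB, the p110-beta subunit, stood at 1.44 RPKM with clusterin and 1.80 RPKM in the control (299 and 431 reads, log2 -0.20), a ratio of 0.800 (0.688 to 0.929). Only 9.85% and 11.2% of measured genes had lower differences than PIK3CA and PIK3CB. PIK3CD, the p110-delta subunit known best from leukocytes, was at 0.234 RPKM with clusterin and 0.193 RPKM in the control, from 42 and 40 reads. PIK3CA made up 69.1% of the catalytic RPKM with clusterin and 69.2% in the control, so the makeup of the catalytic group was alike while its sum was 5.42 RPKM with clusterin and 6.49 RPKM in the control.

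Among the regulatory subunits, which hold the catalytic subunit stable and dock it on IRS proteins, PIK3R2 (p85-beta) was the main transcript. It stood at 9.92 RPKM with clusterin and 9.44 RPKM in the control (1321 and 1449 reads), a log2 difference of 0.06 and a ratio of 1.05 (0.974 to 1.13). PIK3R3 (p55-gamma) stood at 4.68 RPKM with clusterin and 5.35 RPKM in the control (921 and 1212 reads, ratio 0.876, 0.803 to 0.955). PIK3R1 (p85-alpha), the main regulatory subunit in many tissues, was at only 0.586 RPKM with clusterin and 0.580 RPKM in the control (149 and 170 reads, ratio 1.01, 0.805 to 1.27). It thus held 3.86% of the regulatory RPKM with clusterin and 3.78% in the control. Set against PIK3R3 the level of PIK3R2 was 2.12-fold with clusterin and 1.77-fold in the control, a ratio of ratios of 1.20 (1.07 to 1.35). Set against PIK3CA it was 2.65-fold with clusterin and 2.10-fold in the control (1.26, 1.09 to 1.45). PIK3CA against PIK3CB gave a ratio of ratios of 1.04 (0.859 to 1.27).

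The lipid phosphatases INPP4B and INPP5D, which remove phosphates from the lipid products of PI3K, were almost unread. INPP4B had 8 clusterin and 6 control reads, and its ratio of 1.54 had an interval of 0.468 to 5.37. INPP5D, known best from blood cells, had 1 clusterin and 6 control reads, with a ratio of 0.192 (0.00418 to 1.58). A difference in either was not detectable at this depth.

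PDPK1, AKT1 and AKT2 were lower with clusterin, but AKT2 lay just above 0 with a control rescaled by the general offset. AKT1, the more abundant AKT, stood at 16.7 RPKM with clusterin and 18.8 RPKM in the control, from 1804 and 2337 reads, a log2 difference of -0.16 and a ratio of 0.890 (0.836 to 0.946). PDPK1, which phosphorylates AKT in its activation loop, stood at 3.80 RPKM with clusterin and 4.41 RPKM in the control (912 and 1222 reads, log2 -0.17, ratio 0.860, 0.789 to 0.938). AKT2, known for its part in glucose uptake, stood at 12.0 RPKM with clusterin and 12.6 RPKM in the control (2111 and 2547 reads), a ratio of 0.955 (0.901 to 1.01) that lay at the general offset. AKT1 held 58.2% of the AKT1 and AKT2 RPKM with clusterin and 60.0% in the control, and the interval of the ratio of ratios, 0.931 (0.855 to 1.01), held 1. PHLPP1 and PHLPP2, phosphatases that switch AKT off, stood at 4.20 and 3.67 RPKM with clusterin and at 4.23 and 3.96 RPKM in the control, with ratios of 0.994 (0.908 to 1.09) and 0.925 (0.849 to 1.01), and a ratio of ratios of 1.07 (0.948 to 1.22).

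**Figure D2:**
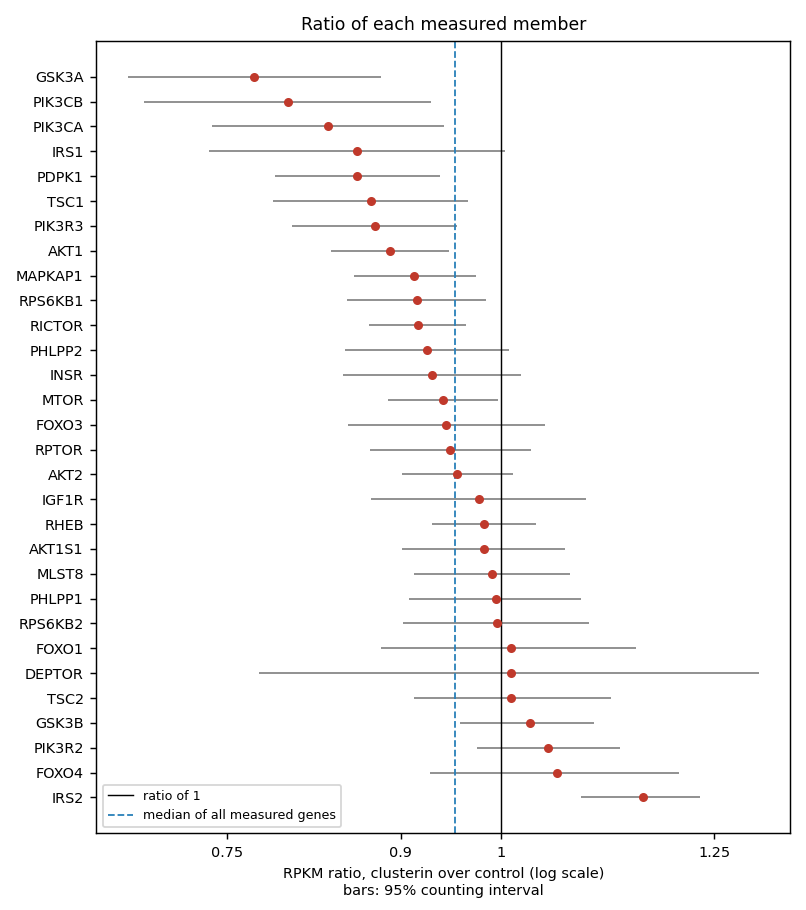
RPKM ratio, clusterin over control, of the 30 measured members on a log axis, sorted, with 95% counting intervals (1 library per group); the solid line is a ratio of 1 and the dashed line the median ratio of all measured genes, 0.953. GSK3A is the lowest at 0.772 and IRS2 the highest at 1.16, and the intervals of 18 members hold 1.

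The glycogen synthase kinases, which AKT phosphorylates and inhibits, held the member with the lowest difference. GSK3A stood at 5.23 RPKM with clusterin and 6.77 RPKM in the control, from 378 and 564 reads, and its log2 difference of -0.32 was that lowest value. Only 3.41% of measured genes lay lower. Its ratio was 0.772 (0.676 to 0.881). GSK3B stood at 6.38 RPKM with clusterin and 6.21 RPKM in the control (1507 and 1691 reads), a log2 difference of 0.03 and a ratio of 1.03 (0.958 to 1.10). The order of these paralogs thus differed between the libraries: GSK3A held 45.0% of their summed RPKM with clusterin and 52.1% in the control. Per unit of GSK3B the level of GSK3A was 0.819 with clusterin and 1.09 in the control, a ratio of ratios of 0.752 (0.647 to 0.874).

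**Figure D3:**
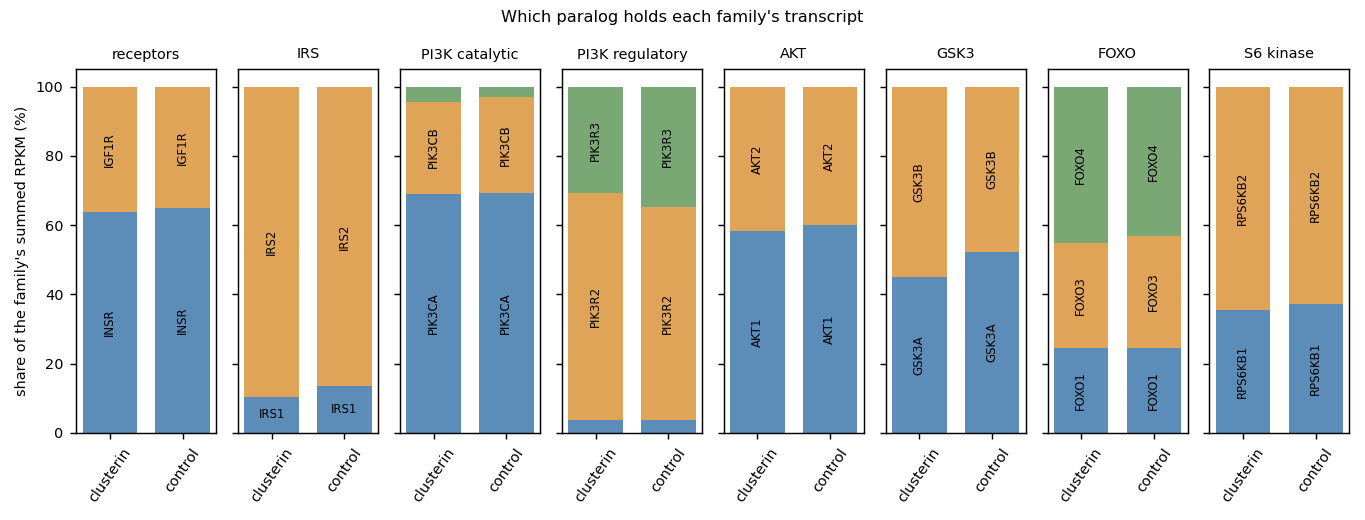
Share of each paralog in the summed RPKM of its family, in percent, for 8 families, with the clusterin library left of the control library in each panel (1 library each). IRS2 holds 89.6% of the IRS transcript with clusterin and 86.5% in the control, the thin unlabelled segments are PIK3CD and PIK3R1, and only in the GSK3 panel does the larger paralog differ between the libraries.

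The other AKT substrates were close to level. Of the FOXO factors, which AKT keeps out of the nucleus, FOXO4 was the most abundant, at 4.02 RPKM with clusterin and 3.80 RPKM in the control (log2 0.06, ratio 1.06, 0.928 to 1.21). FOXO3 stood at 2.70 RPKM with clusterin and 2.86 RPKM in the control (674 and 823 reads, ratio 0.944, 0.851 to 1.05), and FOXO1 at 2.19 RPKM with clusterin and 2.17 RPKM in the control (ratio 1.01, 0.881 to 1.15). AKT1S1, also called PRAS40, an mTOR inhibitor that AKT switches off, stood at 9.97 RPKM with clusterin and 10.2 RPKM in the control (ratio 0.982, 0.901 to 1.07). The intervals of all 4 held 1, as did that of FOXO1 against FOXO3 (1.07, 0.901 to 1.26).

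In the TSC branch, RHEB, the small GTPase that activates mTOR, had the highest level of all 34 members. It stood at 35.1 RPKM with clusterin and 35.7 RPKM in the control (2413 and 2831 reads, ratio 0.982, 0.930 to 1.04). TSC2, the part of the TSC complex that inactivates RHEB, stood at 3.70 RPKM with clusterin and 3.65 RPKM in the control (691 and 787 reads, log2 0.01, ratio 1.01, 0.912 to 1.12). Its stabilizing partner TSC1 was lower, at 2.31 RPKM with clusterin and 2.64 RPKM in the control (ratio 0.872, 0.787 to 0.966). The RPKM of TSC1 per unit of TSC2 was 0.623 with clusterin and 0.723 in the control, with a ratio of ratios of 0.862 (0.744 to 0.998).

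Of the 6 genes of the mTOR complexes, 5 were lower with clusterin as deposited, but MLST8 lay above 0 after rescaling and after quantile normalization, and RPTOR after quantile normalization. The kinase MTOR itself stood at 7.46 RPKM with clusterin and 7.93 RPKM in the control (2159 and 2645 reads, log2 -0.08, ratio 0.941, 0.888 to 0.996). MLST8, which both complexes share, stood at 15.9 RPKM with clusterin and 16.1 RPKM in the control (ratio 0.990, 0.913 to 1.07). RPTOR, the scaffold of the complex that drives growth and translation, stood at 4.40 RPKM with clusterin and 4.64 RPKM in the control (1001 and 1217 reads, ratio 0.948, 0.871 to 1.03). MTOR and RPTOR lay near the offset of all genes, and MLST8 lay above it, at a log2 difference of -0.01. The partners of the other complex, which phosphorylates AKT, were somewhat lower: RICTOR stood at 8.58 RPKM with clusterin and 9.37 RPKM in the control (2713 and 3415 reads, ratio 0.916, 0.870 to 0.963). MAPKAP1, also called SIN1, stood at 14.1 RPKM with clusterin and 15.4 RPKM in the control (ratio 0.913, 0.857 to 0.973). With the control rescaled by the general offset, the intervals of RICTOR and MAPKAP1 held 1. RPTOR was nevertheless not separated from RICTOR, since its level was 0.513 of that of RICTOR with clusterin and 0.496 in the control (1.04, 0.938 to 1.14). DEPTOR, an inhibitor of both complexes, was the lowest of the group at 1.28 RPKM with clusterin and 1.27 RPKM in the control, from 112 and 128 reads (ratio 1.01, 0.775 to 1.31).

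The S6 kinases, which mTOR activates and which phosphorylate a ribosomal protein, were unequal in level. RPS6KB2 stood at 13.2 RPKM with clusterin and 13.3 RPKM in the control (ratio 0.995, 0.902 to 1.10). RPS6KB1 stood at 7.24 RPKM with clusterin and 7.91 RPKM in the control (1317 and 1659 reads, ratio 0.915, 0.850 to 0.984). RPS6KB2 held 64.6% of their summed RPKM with clusterin and 62.6% in the control, and the ratio of ratios of RPS6KB1 over RPS6KB2 was 0.920 (0.814 to 1.04). Of the 12 such pairs compared within the libraries, the interval left out 1 for 5. These were IRS2 with IRS1, PIK3R2 with PIK3R3, PIK3R2 with PIK3CA, GSK3A with GSK3B, and TSC1 with TSC2. No pairs of other genes were compared, so this count has no background here. The pairs also overlap, since PIK3R2 and PIK3CA each enter more than 1.

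Counting intervals without a ratio of 1 were seen for 12 of the 30 measured members (40.0%), against 29.8% of the 10116 measured genes within the members' range of reads (240 to 6128). Intervals lay below 1 for 11 members (36.7%), against 26.1% of 13197 measured genes with recovered reads, and above 1 for IRS2 alone (3.33%), against 4.32%. These intervals narrow with depth, and none of the shares over other genes in this paragraph is matched to the members' depth. The members had a median of 2134 reads over both libraries, against 1194 over all measured genes. After the control was rescaled so that the median difference of all measured genes was 0, the interval lay below 1 for 5 members, PIK3CA, PIK3CB, PDPK1, AKT1 and GSK3A, against 10.6% of genes. It then lay above 1 for IRS2, PIK3R2 and GSK3B, against 11.7% of genes. The SD of the log2 RPKM ratio was 0.13 over the 30 members, where counting alone gives 0.08. Over those 10116 genes it was 0.17, where counting alone gives 0.10. The members thus spread beyond counting error, as other genes in that range of reads did.

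Going by the authors' deposited table, 9 of the 30 measured members (30.0%) had a q under 0.05, 8 lower and 1 higher with clusterin, against 16.6% of all measured genes, 14.6% lower and 1.99% higher. Of the genes within the members' range of reads, the authors' deposited table has such a q for 14.9%, 13.3% lower and 1.61% higher. The 8 lower ones in the authors' deposited table were PIK3CA, PIK3CB, PIK3R3, PDPK1, AKT1, GSK3A, RICTOR and MAPKAP1, and the higher one was IRS2. These q-values count read sampling error only and so compare the 2 libraries, not the conditions. They depend on depth, and the members had a median of 2134 reads over both libraries, against 1194 over all measured genes. Of the 24 members with at least 1000 reads, the authors' deposited table has a q under 0.05 for 7 (29.2%), against 23.9% of the 7295 measured genes with that many reads, a share near the background.

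**Figure D4:**
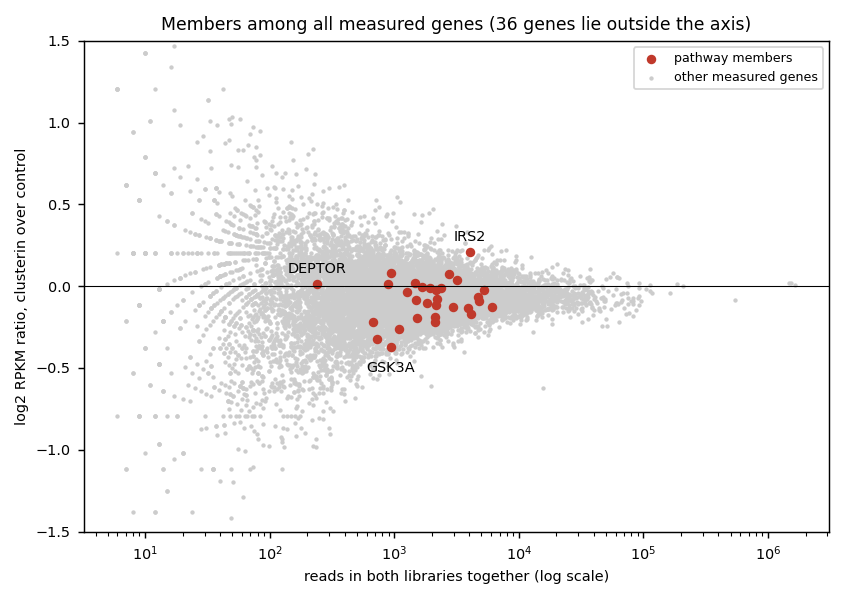
Log2 RPKM ratio, clusterin over control, against the reads in both libraries together (log axis) for the 13197 measured genes with recovered reads; red points are the 30 measured members, and 36 genes lie outside the axis. The members lie inside the cloud of other genes, with GSK3A at -0.37 and IRS2 at 0.21 on this scale without a pseudocount.

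Some levels carry uncertainty about shared reads, since no source states whether counting used strand. On the other strand, 9 members overlap another listed gene. Overlaps were taken between whole gene spans, introns included, so the bases given need not lie in either transcript. RICTOR shares 7660 bases with OSMR (13.1 RPKM with clusterin and 13.0 RPKM in the control), and MTOR shares 5641 bases with MTOR-AS1 (1.28 RPKM with clusterin and 1.93 RPKM in the control). PIK3CB shares 3208 bases with C3orf72, which stood at 1.42 RPKM with clusterin and 1.82 RPKM in the control, close to PIK3CB itself. PIK3R3 shares 1419 bases with TSPAN1 (1.15 RPKM with clusterin and 1.73 RPKM in the control), and both were lower with clusterin. FOXO3B, a near copy of FOXO3, was at 0.440 RPKM with clusterin and 0.335 RPKM in the control, and reads of the copies could be split between them. PIK3CA, PDPK1 and RHEB have near copies elsewhere in the genome as well, and their levels carry the same uncertainty. The part of shared reads in these results was not tested.

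The start regions of the members were read from RefSeq windows on GRCh38.p14, each with 250 bases before and 50 after an annotated start; the table holds 53 windows for 31 of the 34 members, and windows of 1 gene can overlap. The coordinates of 32 members in the deposited table start within 2000 bases of their RefSeq start on that build, although the submitters' processing notes name hg19. The windows of GSK3A, the lowest member, and of IRS2, the highest, are shown because they mark the ends of the range, and that of PIK3CA because it holds a FOXO binding motif. Capitals mark GGGCGG, the GC box bound by SP1, on either strand in GSK3A and IRS2, also TGTTTTG, the core of an insulin response element, in IRS2, and only TGTTTAC, a FOXO motif, in PIK3CA.
GSK3A (chr19:42242553-42242852, minus strand): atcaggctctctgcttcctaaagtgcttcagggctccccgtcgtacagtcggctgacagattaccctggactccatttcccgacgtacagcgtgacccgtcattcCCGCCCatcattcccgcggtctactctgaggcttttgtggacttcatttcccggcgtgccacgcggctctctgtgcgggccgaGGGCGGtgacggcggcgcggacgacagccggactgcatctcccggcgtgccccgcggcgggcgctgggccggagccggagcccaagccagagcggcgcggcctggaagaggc
IRS2 (chr13:109786534-109786833, minus strand): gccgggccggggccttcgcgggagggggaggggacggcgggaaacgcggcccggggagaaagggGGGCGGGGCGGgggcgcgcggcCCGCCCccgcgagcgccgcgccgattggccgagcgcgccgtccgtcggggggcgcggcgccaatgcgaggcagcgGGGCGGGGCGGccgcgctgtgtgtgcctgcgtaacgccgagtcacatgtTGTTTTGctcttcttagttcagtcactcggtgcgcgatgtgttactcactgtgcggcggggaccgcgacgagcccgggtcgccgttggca
PIK3CA (chr3:179148107-179148406, plus strand): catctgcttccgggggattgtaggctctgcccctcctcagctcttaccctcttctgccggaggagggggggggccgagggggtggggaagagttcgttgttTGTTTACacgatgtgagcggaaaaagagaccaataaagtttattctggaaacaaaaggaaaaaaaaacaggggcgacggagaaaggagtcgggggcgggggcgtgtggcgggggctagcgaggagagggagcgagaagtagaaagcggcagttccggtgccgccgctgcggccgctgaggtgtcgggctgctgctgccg

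Searched on both strands, the GC box GGGCGG was in 34 of the 53 member windows (64.2%), against 45.0% of all 35116 windows. The members' windows had a median GC content of 63.7%, against 58.7% over all windows. The motif CCAAT was in 37.7% of member windows and 34.6% of all windows, and CCGGAAG, bound by ETS factors, in 11.3% and 10.3%. TGTTTAC was in 2 member windows, those of PIK3CA and FOXO4, or 3.77% against 3.42% of all windows. TGTTTTG was searched for after the windows had been read; it was in windows of IRS2, PIK3CD and RPS6KB1, or 5.66% against 4.92%. The NRF1 motif was in 7.55% of member windows and 5.78% of all windows, CACGTG (E-box) in 5.66% and 7.26%, TATAAA in 9.43% and 11.5%, and TGACGTCA (CREB) in 0 of 53 and 1.85%. A match is a run of letters in these windows and no measure of binding.

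The pathway's neighbours were read from 9 further lists of 169 genes, of which 127 were measured. Their median log2 difference was -0.06, as over all measured genes. Lower values with clusterin were seen for 90 of the 127 (70.9%), close to the 70.2% of all measured genes, and none reached 2-fold, against 0.219%. The counts under 0 in single lists below are to be read against that same 70.2%. The authors' deposited table has a q under 0.05 for 31 of the 127 (24.4%), 30 lower and 1 higher. Among all measured genes it has such a q for 16.6%, 14.6% lower and 1.99% higher, and among those with at least 1000 reads for 23.9%. These q-values depend on depth, and the lists were not matched in depth to either background. AMPK and energy-sensing genes had the lowest median, -0.10; 13 of the 14 were under 0, as were 70.2% of all measured genes, and 11 were under the median over measured genes. STRADB, a pseudokinase partner of the kinase STK11, was the lowest of them at 2.36 RPKM with clusterin and 3.21 RPKM in the control (log2 -0.32), and CAMKK1, a calcium-dependent kinase, the highest at 0.02. Translation targets of mTOR had a median of -0.08, with 12 of 16 below 0, from EIF4EBP3, a translation repressor, at -0.27 to POLDIP3, a partner of the S6 kinases, at 0.10. EIF4EBP3 had only 35 clusterin and 54 control reads, and the interval of its ratio of 0.747 held 1 (0.474 to 1.16). Ligands and further receptors had a median of -0.07, with 9 of 12 below 0, from the adaptor GRB10 at -0.15 to IGFBP3.

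IGFBP3, which binds insulin-like growth factors outside the cell, was the 1 higher gene with q below 0.05 in the authors' deposited table, at 84.5 RPKM with clusterin and 72.9 RPKM in the control (log2 0.21). Its reads were not recovered. The TOR assembly genes had a median of -0.07 over 8 genes, from TTI2 at -0.26 to TELO2 at 0.07, both of which encode chaperone partners of mTOR-type kinases. Amino acid sensing genes had -0.07 over 25, from FNIP2, a folliculin partner, at -0.21 to WDR24, of the GATOR2 complex, at 0.13. Other phosphoinositide kinases and phosphatases had -0.05 over 14, from the phosphatase INPP5K at -0.26 to PIK3R4, the regulatory subunit of the class III kinase, at 0.03.

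FOXO target genes, a readout of FOXO activity in other tissues, had a median of -0.04 over 16 genes, of which 10 were under 0 and 7 under the median over measured genes. The lowest was SEPP1, which encodes selenoprotein P, at 4.54 RPKM with clusterin and 5.81 RPKM in the control (log2 -0.30), and the highest was KLF6, a zinc finger factor, at 0.12. PP2A subunits, of a phosphatase that acts on AKT, had -0.03 over 11, from PPP2R2A at -0.19 to PPP2R5E at 0.07. SGK kinases and further AKT substrates had -0.01 over 11, from the cell cycle inhibitor CDKN1B at -0.15 to SGK1 at 0.07. With the control rescaled, the medians of these 3 lists and of the other phosphoinositide kinases and phosphatases lay above 0, between 0.01 and 0.05.

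**Figure D5:**
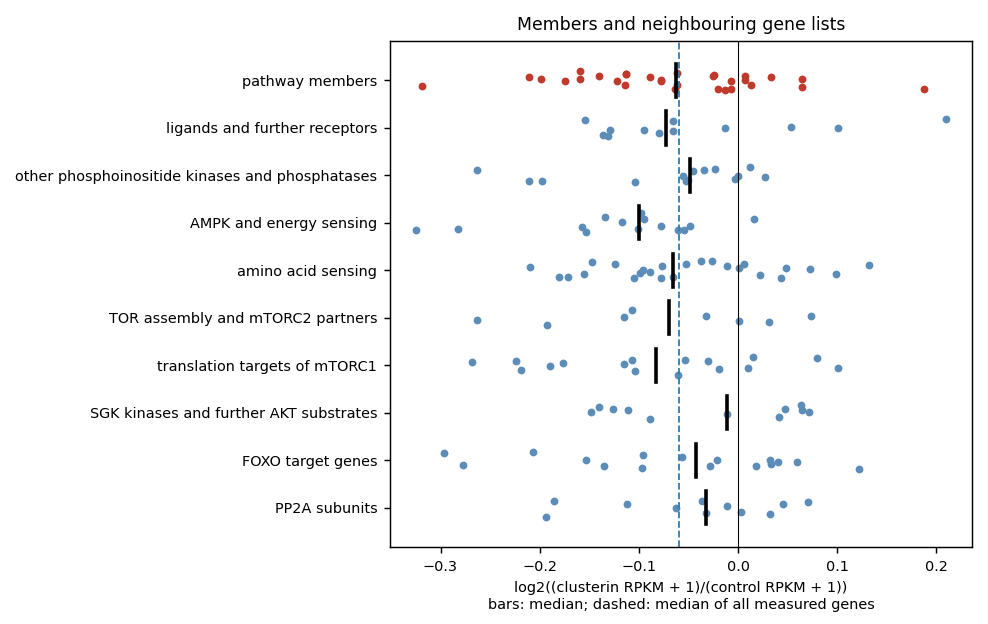
Log2((clusterin RPKM + 1)/(control RPKM + 1)) of each measured gene, for the 30 pathway members (red, top) and the 9 neighbouring lists (blue), with black bars at the list medians, a solid line at 0 and a dashed line at the median of all measured genes, -0.06. List medians run from -0.10 for the AMPK genes to -0.01 for the SGK list, and the lowest gene, STRADB, is at -0.32.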

How the data were processed

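The authors deposited 1 table with a level per gene for each of the 2 libraries, plus their own comparison of them (log2 fold change with p-value and q-value). Bowtie, TopHat and Cuffdiff are named with build hg19, per the submitters' processing notes, which give no versions; no source used here gives the strand setting of the counting. The deposited level columns have no named unit and were read as RPKM from the values. Multiplied by gene length, the 2 levels of 453 of 494 short single-exon RNA genes gave whole reads within 0.02 at library totals of 33177095 (clusterin) and 38236988 (control). For 432 of 441 of these, the Audic-Claverie p, a p for 2 read counts, matched the deposited p-value within 0.01%. Both totals were fitted on these same genes, and the ratio of totals was then tuned to their deposited p-values. Neither count is thus an independent check of the totals. Reads per gene were the whole numbers, at a whole transcript length of up to 40000 bases, that gave both levels and the deposited p; they were found for 20459 of 20642 genes above 0 and for all 34 members. In 1992 genes simulated for clusterin against control, 99.3% were recovered, 100% of these exactly. The simulation used the same p formula and library totals as the recovery, so it checks the search and not those assumptions. Its transcripts were shorter than those of INSR, IGF1R and RICTOR. Whole numbers cannot tell reads from read pairs.

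Differences were computed as log2((clusterin RPKM + 1)/(control RPKM + 1)) for measured genes (mean level 1 RPKM or more); the pseudocount understates the fold of low genes. Ratios of RPKM carry a 95% interval, from the Clopper-Pearson interval for the share of a gene's reads that lie in the clusterin library. Pair ratios carry the conditional interval of the odds ratio. Without molecular identifiers, reads can be copies of 1 molecule, so both cover counting error only. With 1 library per group no test was made. Members and lists were chosen with earlier results of these data known. The rule for named genes gave every member's level, ratios for the lowest and highest 5 and for the core members, and in each list the highest and lowest gene; the ratios of the other members and the search for TGTTTTG were added after seeing the data. The pair ratios were not among the planned results. Alternatives were other pseudocounts, filters, scalings, q thresholds and interval levels. Protein sequences were not used here. Python 3.11.15, pandas 2.3.3, NumPy 2.4.6, SciPy 1.17.1 and matplotlib 3.10.9 were used.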

Additional observations from a re-analysis of the deposited data

How the results depend on the processing

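Other pseudocounts (0.1 and 5 RPKM), no filter or a mean of at least 5 RPKM, a control rescaled to a median of 0, and quantile normalization were tried, changing 1 choice at a time. The members' median log2 difference was negative in all of them, between -0.078 and -0.0044, and no member reached 2-fold in any. The median over all measured genes moved alongside. With a pseudocount of 0.1 RPKM the members' median was -0.078 and that of all measured genes -0.069. After quantile normalization they were -0.0044 and -0.0031. With a mean of at least 5 RPKM, 12 of the 15 members left were lower with clusterin, since fewer members are counted. With the control rescaled, which sets the median of all measured genes to 0, or after quantile normalization, 16 of 30 were lower. Across these settings 22 members kept their sign, 15 lower and 7 higher. IGF1R, AKT2, PHLPP1, AKT1S1, RHEB, MLST8, RPTOR and RPS6KB2 did not. A pseudocount or a filter cannot change a sign. Rescaling raised every difference, so the 7 higher members could have changed sign only under quantile normalization. Of the members with q below 0.05 in the authors' deposited table, 5 passed at 0.01, and 11 members passed at 0.1. Counting intervals without 1 were seen for 10 members at 99% and for 8 after rescaling. After rescaling, the interval lay below 1 for 10.6% and above 1 for 11.7% of measured genes with recovered reads. No share over all genes was taken at the other filter, q thresholds or interval level, so those counts have no background here. The limit of at least 1000 reads was chosen after seeing the data. No paired analysis was possible because each group has 1 library. Depth limits INPP4B, INPP5D and PIK3CD, where intervals span wide ranges.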

Other observations

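The 8 neighbouring genes with the most recovered reads were chosen by that rule after the values were seen. EEF2, the translation elongation factor that EEF2K inhibits, stood at 829.6 RPKM with clusterin and 821.1 RPKM in the control (ratio 1.01, 1.0012 to 1.0196). RPS6, the ribosomal protein that S6 kinases phosphorylate, stood at 863.5 RPKM with clusterin and 881.9 RPKM in the control (ratio 0.979, 0.962 to 0.996). The initiation factor genes EIF4B, EIF4A1 and EIF4G1 had ratios of 0.928 (0.916 to 0.941), 0.958 (0.937 to 0.980) and 0.963 (0.936 to 0.991). DDIT4, an inhibitor of mTOR that stress and hypoxia induce, stood at 380.8 RPKM with clusterin and 401.9 RPKM in the control (ratio 0.947, 0.931 to 0.965). MET, a growth factor receptor, had a ratio of 0.935 (0.912 to 0.959). TXNIP, an inhibitor of glucose uptake, had the lowest ratio of the 8, at 55.8 RPKM with clusterin and 67.9 RPKM in the control (5422 and 7599 reads, ratio 0.822, 0.794 to 0.852). The median ratio over all measured genes was 0.953.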
